A study of Mus musculus with 6 samples.

Results

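The 9 genes described here encode the scaffolds and the enzymes with which T cells build ligands for selectins. They were chosen by gene symbol (Selplg, Cd44, Spn, Fut7, Gcnt1, St3gal4, St3gal6, B4galt1 and Tpst2) from a table of 14051 genes, all 9 were found in it, and all 9 passed the filter on low values. The table holds bulk RNA-Seq of 6 libraries of donor CD8+ T cells, 3 from GC-treated and 3 from vehicle-treated recipients. Donor T cells came from B6.CD45.1 mice and were transplanted into B6D2F1 mice, the F1 hybrid of the donor background with another strain, so that the donor cells meet a haploidentical host. All recipients had total body irradiation beforehand. GC-treated recipients received water-soluble dexamethasone, a synthetic glucocorticoid (GC), at 5 mg/kg/day from day -1 to day 5, and vehicle-treated recipients received methyl β-cyclodextrin in its place. Cells were taken on day 5 after transplantation, the last day of treatment. The sorted cells were those of the BM that an antibody against CD45, given into the vein before death, had stained, that is, cells inside vessels. A figure legend of the paper calls them effector memory T cells, a class it defines in part by CD44 on the surface. Its methods for these libraries name no sort on CD44. Whether the cells were selected for CD44, the protein of 1 of the 9 genes, thus cannot be told. Marrow of 2 to 3 mice was pooled for each biological group, and it is not stated whether the 3 libraries of a group came from separate pools, so p-values measure the spread between libraries, which may be technical.

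Selectins are lectins that slow flowing leukocytes on vessel walls. P-selectin and E-selectin are displayed by endothelium, and P-selectin by platelets as well; the sinusoids of the BM display E-selectin and P-selectin without inflammation. Their shared ligand is the sugar sialyl Lewis X, which a chain of Golgi enzymes builds at the tips of glycans on a few mucin-like proteins. Naive T cells make little of it, and activated T cells switch on the branching and fucosylating enzymes.

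The libraries held 67887570 to 76888118 reads on listed genes in the GC-treated group and 60949593 to 64801008 in the vehicle-treated group, and the 9 genes made up 0.185% to 0.201% of each library. Values are normalized counts, the reads of a gene divided by 1 size factor per library. The cells carried the markers of their label: 7 of 7 CD8 T cell genes summed to 369302 to 456588 normalized counts in GC-treated and 366176 to 401029 in vehicle-treated libraries, while 3 of 3 CD4 T cell genes summed to 432 to 744 in GC-treated and 602 to 935 in vehicle-treated libraries. Of 12 listed neutrophil genes 9 were in the table, led by Ltf, and they summed to 1830, 12622 and 8859 in GC-treated libraries 1, 2 and 3 and to 778, 455 and 4218 in vehicle-treated libraries 1, 2 and 3, at most 0.0187% of a library. Of these 9, 8 had positive log2 fold changes and 1, Elane, a negative one (-0.39). Ltf was at 0 in vehicle-treated 1, and Mmp8 and Retnlg were at 0 in vehicle-treated 1 and 2. Mpo, in contrast, was highest in vehicle-treated 3, at 795. Elane, Mmp8, Retnlg and Mpo are named after their values were seen. GC-treated 1 stood apart from the other libraries of its group: its value lay inside the vehicle-treated range in 53.5% of all tested genes, against 35.5% for GC-treated 2 and 26.6% for GC-treated 3. Among the 9 genes it lay inside for 6, and GC-treated 2 and 3 for 1 each, so fold changes are given with and without it where it matters.

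Between GC-treated and vehicle-treated cells, the transcript of the main scaffold, PSGL-1, differed little on average at a high level, while those of the scaffolds CD44 and CD43 and of the fucosyltransferase Fut7 were lower and that of the sialyltransferase St3gal6 was higher on average. None of these differences passed the test. Limma on log2(normalized count + 1), with Benjamini-Hochberg adjustment over 11649 tested genes, called 0 of the 9 genes higher and 0 lower at an adjusted p under 0.05, against 0% of all tested genes in each direction. EdgeR and DESeq2 on the recovered reads also called 0 of the 9. At an unadjusted p under 0.05 limma had 2 of the 9 lower, against 5.07% of all tested genes, and 0 higher, against 2.12%. The groups overlapped for all 9, whereas 6.40% of tested genes lay entirely higher and 6.40% entirely lower with GC treatment. The median log2 fold change of the 9 was -0.033 and that of all tested genes -0.0079, and the median size of the change without its sign was 0.16 for the 9 and 0.15 for all tested genes.

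**Figure D1:**
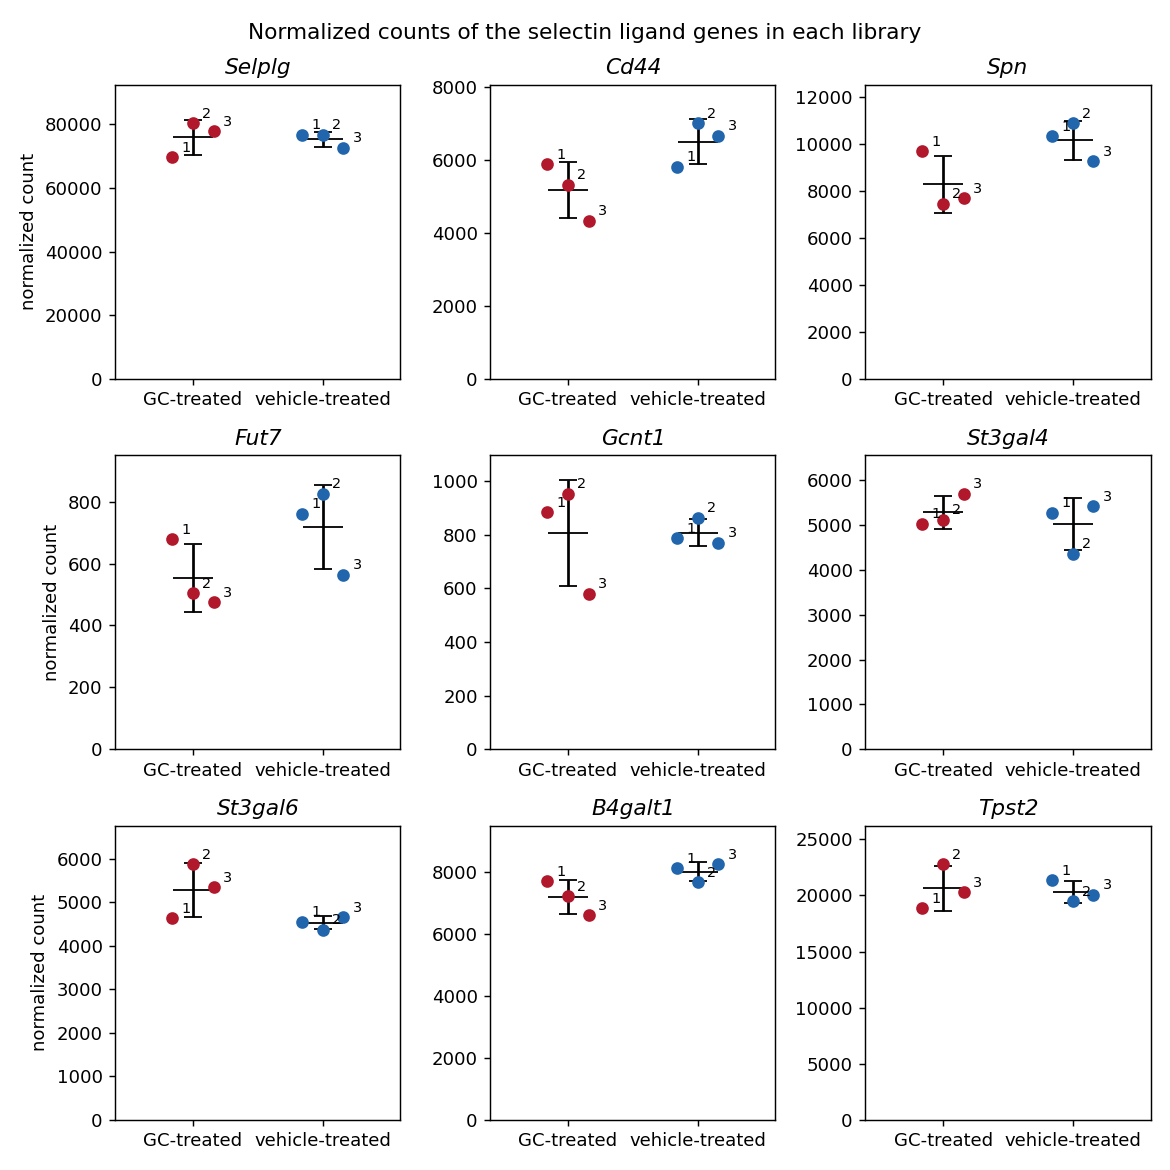
Normalized counts (y axes, from 0) of the 9 selectin ligand genes in GC-treated (left) and vehicle-treated (right) libraries. Each point is 1 library with its replicate number, and bars give mean and SD (n = 3); the groups overlap for every gene, and for Cd44, Spn, Fut7, B4galt1 and St3gal6 it is GC-treated 1 that lies within the vehicle-treated range.

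Selplg encodes PSGL-1, the mucin that binds P-selectin best and can bind the other selectins too. Its gene spans 113956597 to 113970705 of chromosome 5 (GRCm39), reverse strand. Normalized counts were 69742, 80363 and 77807 in GC-treated libraries 1, 2 and 3, against 76759, 76710 and 72671 in vehicle-treated libraries 1, 2 and 3. The lowest value, as well as the highest, was in a GC-treated library. The log2 fold change was 0.0091 (standard error, SE, 0.081; limma adjusted p = 0.98), with a 95% interval of -0.18 to 0.19.

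Cd44 encodes the hyaluronan receptor of activated and memory T cells, some glycoforms of which bind E-selectin. The gene spans 102641486 to 102732010 of chromosome 2, reverse strand. Counts were 5873, 5315 and 4331 in GC-treated libraries 1, 2 and 3, against 5815, 7004 and 6665 in vehicle-treated libraries 1, 2 and 3. GC-treated 2 and 3 were the lowest of the 6 libraries, and GC-treated 1 lay just above vehicle-treated 1. The log2 fold change was -0.34 (SE 0.13, limma adjusted p = 0.62), a fold of 0.79 with a 95% interval of 0.65 to 0.97 before any adjustment for the number of genes. Without GC-treated 1 it was -0.43 (limma adjusted p = 0.13).

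Spn encodes CD43, a long sialylated mucin that serves activated T cells as an E-selectin ligand, and spans 126731404 to 126736995 of chromosome 7, reverse strand. Counts were 9694, 7463 and 7685 in GC-treated libraries 1, 2 and 3, against 10327, 10892 and 9268 in vehicle-treated libraries 1, 2 and 3. Again GC-treated 2 and 3 were below all vehicle-treated libraries, and GC-treated 1 lay above vehicle-treated 3. The log2 fold change was -0.30 (SE 0.12, limma adjusted p = 0.62), a fold of 0.81 with a 95% interval of 0.67 to 0.98 before adjustment, and -0.42 without GC-treated 1 (limma adjusted p = 0.090), the smallest adjusted p of any of the 9 genes under any setting run.

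Among the enzymes, Fut7 performs the last step. It adds the fucose on which the binding of T cells to P-selectin and E-selectin chiefly depends. The gene spans 25313266 to 25316386 of chromosome 2, forward strand. Counts were 679, 504 and 476 in GC-treated libraries 1, 2 and 3, against 761, 826 and 564 in vehicle-treated libraries 1, 2 and 3. The values of GC-treated 2 and 3 were the lowest, and GC-treated 1 exceeded vehicle-treated 3. Fut7 had the most negative log2 fold change of the 9 genes, -0.37 (SE 0.20, limma adjusted p = 0.62), with a 95% interval of -0.84 to 0.088, and was at -0.53 without GC-treated 1 (limma adjusted p = 0.20). The counting error of its lowest library, at 508 reads, was 4.44%, which covers the counting of reads alone and not amplification or the sampling of molecules. The highest value of the 6 libraries was 1.73 times the lowest.

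The 300 bases around the start of 3 of the genes are shown, 250 before and 50 after the start of the canonical Gencode transcript on GRCm39, for the scaffold with nearly equal group means (Selplg) and the pair that was lowest in GC-treated 2 and 3 in near-identical library order (Spn and Fut7). These 3 were picked after their values were seen, and Cd44 and B4galt1 were also lowest in GC-treated 2 and 3. Capitals mark matches, on either strand, to AGAACA, a single hexamer of the paired glucocorticoid receptor site, to AGGTGTGA, a T-box site, or to TTCNNNGAA, a STAT site. Sequences are written along each gene's own strand, at chr5:113968518-113968817 (reverse), chr7:126736946-126737245 (reverse) and chr2:25313016-25313315 (forward).
Selplg: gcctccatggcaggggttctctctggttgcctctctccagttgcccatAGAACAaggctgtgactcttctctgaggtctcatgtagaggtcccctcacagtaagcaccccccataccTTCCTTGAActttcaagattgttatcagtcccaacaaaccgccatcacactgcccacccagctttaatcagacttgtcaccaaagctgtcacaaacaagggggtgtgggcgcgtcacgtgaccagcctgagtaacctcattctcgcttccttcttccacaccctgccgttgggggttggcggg
Spn: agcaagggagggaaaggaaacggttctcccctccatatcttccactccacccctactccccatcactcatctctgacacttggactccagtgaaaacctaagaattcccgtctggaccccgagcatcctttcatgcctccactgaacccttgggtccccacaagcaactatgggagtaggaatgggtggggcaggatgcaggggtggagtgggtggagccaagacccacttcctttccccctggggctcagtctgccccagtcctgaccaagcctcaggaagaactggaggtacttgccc
Fut7: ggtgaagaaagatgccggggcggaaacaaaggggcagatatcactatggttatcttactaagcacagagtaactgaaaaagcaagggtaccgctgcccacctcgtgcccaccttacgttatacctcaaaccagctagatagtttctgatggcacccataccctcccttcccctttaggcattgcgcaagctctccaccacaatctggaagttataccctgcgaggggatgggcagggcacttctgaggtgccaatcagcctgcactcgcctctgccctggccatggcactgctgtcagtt

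Of the 9 promoters, 2 held the hexamer (Selplg and St3gal4), 2 held the STAT letters (Selplg and B4galt1) and 0 held the T-box letters, and no matches overlapped each other. Over 21770 promoters of protein-coding genes the shares were 17.0%, 8.81% and 1.13%. Spn and Fut7 held none of the 3 in this window, which says nothing of sites elsewhere.

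St3gal6 and St3gal4 encode the sialyltransferases that cap the galactose of the chain with sialic acid before fucose is added. St3gal6 spans 58286438 to 58344780 of chromosome 16, reverse strand. Its counts were 4642, 5880 and 5346 in GC-treated libraries 1, 2 and 3, against 4559, 4371 and 4668 in vehicle-treated libraries 1, 2 and 3. GC-treated 2 and 3 were the highest libraries, and GC-treated 1 lay between vehicle-treated 1 and 3. The log2 fold change was 0.22 (SE 0.11, limma adjusted p = 0.62), with a 95% interval of -0.024 to 0.46, and 0.31 without GC-treated 1 (limma adjusted p = 0.14). Exons of St3gal6 overlap those of Dcbld2 on the other strand over 3966 bases; strand is lost in this kit, so reads there are uncertain. The methods name default settings of the counting tool, which take only reads on the strand of the gene, and do not mention strand. If that setting was left as it is, reads from the other strand are missing from every gene, in the totals and in levels per kilobase alike. Dcbld2 was low, at 413, 165 and 72.6 in GC-treated libraries 1, 2 and 3 and 317, 333 and 162 in vehicle-treated libraries 1, 2 and 3. Exons of Selplg, Cd44 and St3gal4 also overlap exons on the other strand, over 541, 207 and up to 1220 bases. St3gal4, at 34957872 to 35034889 of chromosome 9, had 5031, 5117 and 5701 in GC-treated libraries 1, 2 and 3, against 5282, 4364 and 5421 in vehicle-treated libraries 1, 2 and 3. The groups overlapped widely, and the log2 fold change was 0.077 (SE 0.11, limma adjusted p = 0.81), with a 95% interval of -0.17 to 0.33.

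B4galt1 encodes a galactosyltransferase that makes the N-acetyllactosamine unit on which sialic acid and fucose are placed. Its gene spans 40804602 to 40854046 of chromosome 4, reverse strand. Counts were 7720, 7224 and 6621 in GC-treated libraries 1, 2 and 3, against 8135, 7680 and 8261 in vehicle-treated libraries 1, 2 and 3. Only GC-treated 1 and vehicle-treated 2 were out of the order that would part the groups, and they differed little. The log2 fold change was -0.16 (SE 0.090, limma adjusted p = 0.62), with a 95% interval of -0.36 to 0.043, and -0.21 without GC-treated 1 (limma adjusted p = 0.23). Gcnt1, at 17303505 to 17350208 of chromosome 19, encodes the branching enzyme that starts the core 2 O-glycan on which PSGL-1 carries its ligand sugar. It had 886, 954 and 581 in GC-treated libraries 1, 2 and 3, against 787, 865 and 771 in vehicle-treated libraries 1, 2 and 3. The GC-treated libraries lay on both sides of the vehicle-treated ones, with GC-treated 3 the lowest, and the log2 fold change was -0.033 (SE 0.20, limma adjusted p = 0.96), with a 95% interval of -0.48 to 0.41.

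Tpst2 encodes a sulfotransferase that sulfates tyrosines at the tip of PSGL-1, a change that high-affinity P-selectin binding needs. Its gene spans 112424521 to 112463227 of chromosome 5, forward strand. Counts were 18850, 22787 and 20301 in GC-treated libraries 1, 2 and 3, against 21362, 19503 and 20056 in vehicle-treated libraries 1, 2 and 3. Its log2 fold change was 0.021 (SE 0.091, limma adjusted p = 0.95), with a 95% interval of -0.19 to 0.23. For Selplg and Tpst2 the 95% intervals, before adjustment for the number of genes, leave room for changes of at most 0.23 on the log2 scale in either direction.

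**Figure D2:**
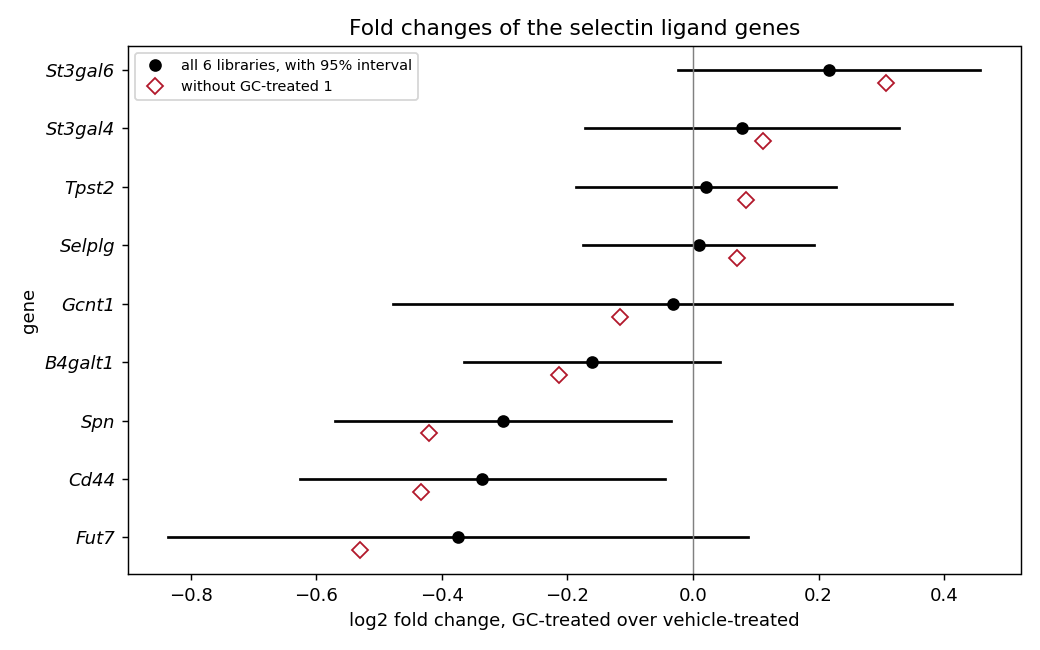
Log2 fold changes of GC-treated over vehicle-treated libraries (x axis) for each gene. Filled points with bars are limma's estimates and 95% intervals from 6 libraries, and open diamonds are the estimates without GC-treated 1. The diamonds lie farther from 0 than the filled points for every gene, as for Spn at -0.42 against -0.30. GC-treated 1 was picked because it lay inside the vehicle-treated range most often, so this move away from 0 is not a result about these genes.

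Leaving out GC-treated 1 parted the groups for 6 of the 9 genes. Cd44, Spn, Fut7 and B4galt1 were then lower in every GC-treated library, and St3gal6 and Selplg higher. Over all tested genes, 19.7% were parted as lower and 19.7% as higher when that library was left out. It was picked because it lay inside the vehicle-treated range most often, so these shares do not stand for the removal of an arbitrary library, and 2 libraries also overlap with 3 less easily. At an unadjusted p under 0.05, 4 of the 9 were then lower, against 12.2% of all tested genes, and 1, St3gal6, was higher, against 8.34%. None passed the adjusted test.

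The order of the libraries was nearly alike in Spn and Fut7 and reversed in St3gal6, which was noticed only once their values were known. The rest of the 9 genes ran in other orders. From low to high, Spn ran GC-treated 2, GC-treated 3, vehicle-treated 3, GC-treated 1, vehicle-treated 1 and vehicle-treated 2, and St3gal6 ran in the exact reverse. Fut7 followed the order of Spn but for a swap of GC-treated 2 and 3. The order of Spn, but not that of Fut7, is also the order of the share of mitochondrial reads, and the exact reverse of the summed neutrophil genes given above. The mitochondrial share was 0.902%, 0.400% and 0.615% in GC-treated libraries 1, 2 and 3 and 0.910%, 1.13% and 0.757% in vehicle-treated libraries 1, 2 and 3. Of all tested genes, 0.678% had the libraries in exactly the order of the mitochondrial share and 0.506% in its reverse. The part of RNA quality or of neutrophil transcripts in the values of Spn, Fut7 and St3gal6 was not tested, and in bulk RNA fewer cells of a type and less RNA per cell cannot be told apart. As a ratio within each library, St3gal6 over Fut7 was 6.84, 11.7 and 11.2 in GC-treated libraries 1, 2 and 3, against 5.99, 5.29 and 8.27 in vehicle-treated libraries 1, 2 and 3. The order of this ratio follows from the opposite orders of both genes and adds nothing to them.

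**Figure D3:**
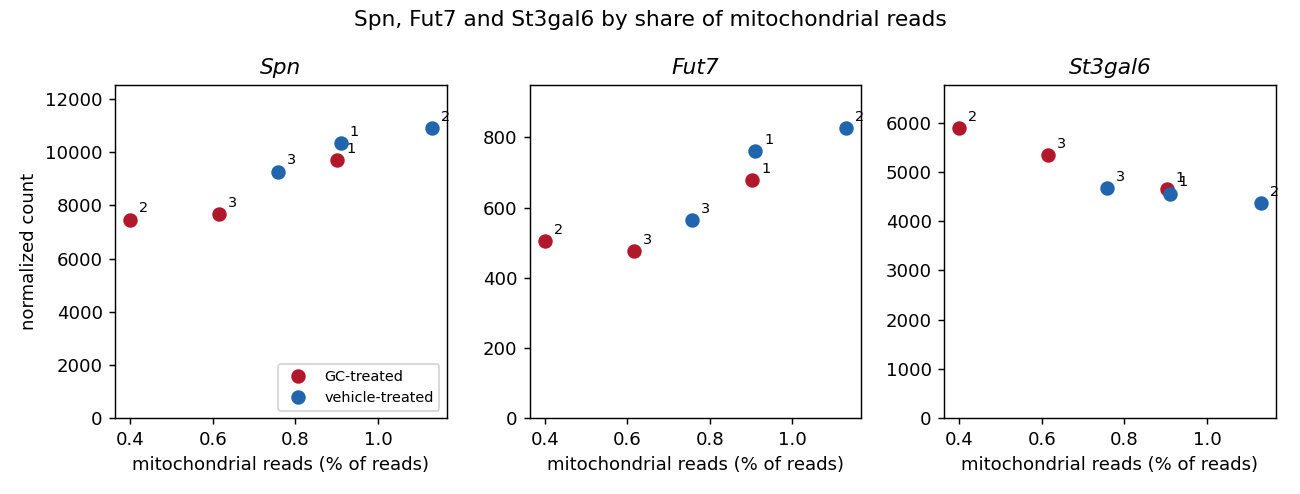
Normalized counts (y axes) of Spn, Fut7 and St3gal6 against the share of mitochondrial reads (x axes, percent) in 6 libraries, numbered by replicate within GC-treated and vehicle-treated groups. Spn and Fut7 are lowest and St3gal6 is highest in GC-treated 2 and 3, at shares of 0.400% and 0.615%, while GC-treated 1, at 0.902%, sits beside vehicle-treated 1.

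Levels of different genes were compared per kilobase of exon, on the normalized count scale. Length was the union of exons over all Gencode transcripts of a gene, from 2368 bases for Fut7 to 12738 for B4galt1. This union can hold exons that these cells do not use, so the ranks depend on the annotation. Selplg was far the most abundant, with a mean of 17760 per kb in GC-treated and 17620 in vehicle-treated libraries. Tpst2 followed with 2407 in GC-treated and 2367 in vehicle-treated libraries, and Spn with 1769 in GC-treated and 2171 in vehicle-treated libraries, and the ranges of this pair over the 6 libraries overlapped. Next came St3gal4, Cd44, St3gal6 and B4galt1, with 1048, 763, 589 and 564 per kb in GC-treated libraries and 996, 958, 504 and 630 per kb in vehicle-treated libraries. In this set of 4 each range overlapped with the next, and the set lay clear of Spn above and Fut7 below. Fut7 had 233 per kb in GC-treated and 303 in vehicle-treated libraries, Gcnt1 had 116 in GC-treated and 116 in vehicle-treated libraries, and the ranges of these lowest 2 did not overlap. The last fucosylation step and the branching step thus had the least transcript per kb of the 9, and the scaffold PSGL-1 the most.

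The rest of the pathway was read from 11 lists with 89 further genes, of which 80 were in the table and 70 were tested. None was called by limma in either direction, 33 had positive and 37 negative log2 fold changes, and at an unadjusted p under 0.05 there were 2 higher and 2 lower, or 2.86% each way, against 2.12% higher and 5.07% lower of all tested genes. These shares are near or under the background, so the 4 genes are given as values and not as changes. The groups did not overlap for 2 of the 70 as higher (2.86%) and 7 as lower (10%), against 6.40% of all tested genes each way. The 2 with an unadjusted p under 0.05 and a positive fold change were Tpst1 and Nans. Tpst1, the other tyrosylprotein sulfotransferase, had 2853, 2818 and 3183 in GC-treated libraries 1, 2 and 3, against 2140, 1940 and 2807 in vehicle-treated libraries 1, 2 and 3. The groups did not overlap, by a small margin at vehicle-treated 3, and the log2 fold change was 0.38 (SE 0.14, limma adjusted p = 0.62). Nans, an enzyme of sialic acid synthesis with the highest mean count of 14 genes of nucleotide sugar supply (these list leaders are by count, not per length), was at 12698, 13351 and 14124 in GC-treated libraries 1, 2 and 3, against 11517, 11293 and 12379 in vehicle-treated libraries 1, 2 and 3, with a log2 fold change of 0.19 (limma adjusted p = 0.62). The groups did not overlap.

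The 2 with a negative fold change were Fut8 and Rhbdf2. Fut8 adds the core fucose of N-glycans and not that of sialyl Lewis X, and had 2906, 3444 and 2746 in GC-treated libraries 1, 2 and 3, against 3923, 3936 and 3662 in vehicle-treated libraries 1, 2 and 3. All GC-treated libraries were lower, and the log2 fold change was -0.35 (SE 0.11, limma adjusted p = 0.62). Rhbdf2 encodes iRhom2, a partner of the sheddase ADAM17, which clips proteins from the leukocyte surface, and had a log2 fold change of -0.35 (limma adjusted p = 0.62) with groups that overlapped. Adam17 itself had 11353, 11186 and 9740 in GC-treated libraries 1, 2 and 3, against 11668, 11929 and 13244 in vehicle-treated libraries 1, 2 and 3, with a log2 fold change of -0.19 (limma adjusted p = 0.62). Its groups did not overlap, and the same held, with lower values in GC-treated libraries, for Fut8, Fut11, C1galt1, Galnt7, Slc35c1 and Fpgt; Adam17, Fut11, C1galt1, Galnt7, Slc35c1 and Fpgt are named after their values were seen, and those had log2 fold changes of -0.31 to -0.14. Adam10, another sheddase with the highest mean count of its list, had a log2 fold change of -0.026.

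Among other selectin ligand carriers, Glg1, which encodes the E-selectin ligand ESL-1, had 13625, 10909 and 8935 in GC-treated libraries 1, 2 and 3, against 13479, 13555 and 12638 in vehicle-treated libraries 1, 2 and 3. GC-treated 1 was the highest of all and GC-treated 2 and 3 the lowest, with a log2 fold change of -0.27 (limma adjusted p = 0.62). Of the ezrin, radixin and moesin linkers, which tie PSGL-1, CD43 and CD44 to actin, Msn had the highest mean count and a log2 fold change of -0.042.

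Of 13 tested genes of O-glycan initiation and cores, 6 had positive and 7 negative values, with Galnt1, a starter of O-glycans, at -0.045. Of 9 tested genes of N-acetyllactosamine extension, 6 had positive and 3 negative values. The galactosyltransferase B4galt5, with the highest mean count, was at 11692, 7375 and 7401 in GC-treated libraries 1, 2 and 3, against 12337, 10955 and 9823 in vehicle-treated libraries 1, 2 and 3. Only GC-treated 1 lay within the vehicle-treated range, and the log2 fold change was -0.35 (limma adjusted p = 0.62). Of 10 tested other sialyltransferases, 3 had positive and 7 negative values, and St6galnac4, with the highest mean count, was at 0.21. Of 5 tested other fucosyltransferases, 2 had positive and 3 negative values, and Pofut2, highest in mean count, was at 0.094. Of 6 tested sulfation genes, 4 had positive and 2 negative values. The highest in mean count was Slc35b2, which brings the sulfate donor into the Golgi, at 0.026. Fut4, an α1,3-fucosyltransferase that can also complete the ligand and was picked after its values were seen, had 422, 262 and 615 in GC-treated libraries 1, 2 and 3, against 351, 339 and 436 in vehicle-treated libraries 1, 2 and 3. Its GC-treated libraries were the lowest and the highest of the 6. Tbx21, which encodes T-bet, a transcription factor that raises selectin ligand synthesis in T cells, had the highest mean count of its list and a log2 fold change of 0.052 (SE 0.077, limma adjusted p = 0.81), with a 95% interval of -0.12 to 0.23.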

How the data were processed

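Bulk RNA-Seq of 6 libraries was analysed. The authors prepared libraries with SMART v4 and Nextera XT kits, aligned reads to GRCm39 using STAR, obtained counts per gene from summarizeOverlaps and applied DESeq2; no source used here gives the versions. The authors deposited 1 table in which the unit is a normalized signal: each library's counts over its size factor. In each library 100% of values were within 0.001 of a whole number of reads once divided by the smallest value above 0, so reads were recovered for edgeR 4.0.16 and DESeq2 1.42.0, run as alternatives. How the authors chose the listed genes is not stated.

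The group of each library came from its sample label, and the drug, dose, days and vehicle came from the methods of the paper. The main test was limma 3.58.1 (R 4.3.3), with a trend of variance on mean, for log2(value + 1) of the 11649 genes that reached a value of 10 in 3 or more libraries. P-values were adjusted over all of them by the Benjamini-Hochberg method, with a threshold of 0.05. For a single gene, exact permutation of 3 against 3 libraries gives no p below 0.1. The members, lists and tests were chosen with earlier results of these data known. Of each pathway list that is described, the members with an unadjusted p under 0.05 and the one with the highest mean count are named. The list of the P-selectin and E-selectin genes had 0 tested members and is not described. Genes that these lists and rules would also take are not reported here and are left out of the list counts. Gene models, exon lengths and promoters are from Gencode M39 on GRCm39; the authors used an earlier Gencode release of that build.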

Additional observations from a re-analysis of the deposited data

How the results depend on the processing

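Limma called 0 genes higher and 0 lower, with 247 and 591 at an unadjusted p under 0.05. Other pseudocounts, filters, TMM scaling, edgeR and the replicate block, with the replicate number as a block, also gave 0 higher and 0 lower, while limma without a trend gave 1 lower and DESeq2 gave 2 lower, none of them a selectin ligand gene. The cause was not tested. The paper, which also used DESeq2 with default parameters, reports many homing and migration molecules as differentially expressed. Its heatmap took genes at an adjusted p under 0.05. Why so few genes were called here was not tested. The labels and methods do not say whether the replicate numbers pair the libraries. Deviations of same-numbered libraries from their group means correlated at 0.063, -0.14 and 0.13. The highest correlation with a vehicle-treated library of another number was 0.225, 0.118 and -0.058 for GC-treated 1, 2 and 3. With 3 libraries per group these values cannot decide on pairing. Leaving out each library in turn gave 0 to 2 higher and 0 to 43 lower, the most without GC-treated 1, and 0 selectin ligand genes. Cd44, Spn, Fut7, B4galt1 and St3gal6 kept their sign under all 15 settings, all of which keep the labels. Leaving out 1 library moved Selplg from -0.033 to 0.070, Gcnt1 from -0.17 to 0.19, St3gal4 from -0.021 to 0.14 and Tpst2 from -0.053 to 0.084, so none of these 4 has a settled direction. Nor is the direction of Cd44, Spn, Fut7, B4galt1 and St3gal6 settled by a kept sign, because the settings reuse the same libraries. The same removals moved Fut7 from -0.54, without vehicle-treated 3, to -0.26, without vehicle-treated 2, Cd44 from -0.43 to -0.21, without GC-treated 3, Spn from -0.42 to -0.23, without GC-treated 2, B4galt1 from -0.21 to -0.10, without GC-treated 3, and St3gal6 from 0.14, without GC-treated 2, to 0.31.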

Other observations

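Of the 11649 tested genes, those whose log2 values most resembled Selplg over the 6 libraries were Phospho2, Thap4 and AI467606, with Pearson r of 0.989, 0.986 and 0.981, and those most like Fut7 were Mapk8ip2 and Plek, with r of 0.998 and 0.995. Among so many genes and only 6 libraries some r near 1 is always found, so these names describe the 6 libraries and no more.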
